A study of Mus musculus with 8 samples.

Results

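Astrocytes carry receptors through which transmitters, peptides and lipids reach them, and 10 genes of that system are described here: 9 genes that encode receptors or a receptor subunit, and Itpr2, which encodes a channel of the internal calcium store. They were chosen by gene symbol from the 24047 rows of a table of read counts, and all 10 were found. Several of the receptors couple to the G protein Gq, which activates phospholipase C. The inositol trisphosphate (IP3) made by that enzyme opens IP3 receptors on the endoplasmic reticulum and releases calcium into the cytosol. Noradrenaline, ATP, endothelin and GABA are among the signals known to raise calcium in cortical astrocytes, in part through receptors that couple mainly to Gi.

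RNA came from 8 samples of mouse somatosensory cortex, from which cells bearing the red reporter tdTomato had been sorted at postnatal days 23 to 25. The 4 Ptch1cKO samples came from mice with Glast-CreERT2, both Ptch1 alleles floxed, and the Ai14 reporter. The 4 WT samples came from mice with Glast-CreERT2 and Ai14 alone, so the controls carry the Cre driver and the reporter too. Tamoxifen, which activates this Cre, was injected on days 12 to 14 in both groups, at 10 to 15 µL of a 20 mg/ml solution. Ptch1 encodes the Hedgehog receptor that holds the pathway off without ligand, and the comparison asks what its loss changes in astrocytes. Cre acts in cells that use the Glast (Slc1a3) promoter and the label passes to their progeny, so the sorted cells need not all be astrocytes. Whether each library is its own animal is not in the labels, and the tests speak only to variation among the samples.

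Libraries held 4061274 to 7043378 counts in Ptch1cKO and 4958119 to 7206462 in WT. Ptch1cKO replicate 3 was the shallowest and WT replicate 3 the deepest. WT replicate 3 also had counts for the most genes, 17554, where the other libraries had 15175 to 16106. Ptch1 had 219, 249, 168 and 258 CPM (counts scaled to a common library size, with TMM factors for library composition) in the Ptch1cKO libraries, replicates 1 to 4, against 285, 227, 491 and 425 CPM in the WT libraries. The groups overlapped for Ptch1, and its log2 fold change (Ptch1cKO over WT) was -0.67 with a standard error (SE) of 0.22, which did not pass (adjusted p = 0.349 by edgeR). The edgeR test is the quasi-likelihood F test, and each of its adjusted p-values is by Benjamini-Hochberg over all genes tested. The Ptch1 count is per gene, so transcripts that lack an exon are still counted. All 12 astrocyte markers examined were counted in every library, with a summed level of 21080 to 40445 CPM in Ptch1cKO and 24278 to 34925 CPM in WT. Most of that sum was Slc1a2, at 15926 CPM in Ptch1cKO and 18620 CPM in WT on average, while 10 of the 12 markers had a positive fold change (median 0.15 on the log2 scale). The part of astrocyte RNA content in the receptor values was not tested. All 7 oligodendrocyte markers and all 10 neuronal markers were counted in every library too. The oligodendrocyte sum was 17455 to 23094 CPM in Ptch1cKO and 13751 to 26619 CPM in WT, with positive fold changes in 6 of 7, and the neuronal sum 4388 to 5560 CPM in Ptch1cKO and 4497 to 5929 CPM in WT. The 9 endothelial markers summed to only 11.7 to 26.6 CPM in Ptch1cKO and 10.9 to 23.5 CPM in WT, and Cldn5 had at most 3 counts in any library. In bulk RNA, fewer cells of a type and less RNA per cell cannot be told apart. WT replicates 2 and 3 had 1148 and 612 counts of Xist, the RNA of the inactive X of females, and the other 6 libraries had at most 4.

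Over all genes, 11 of 10954 tested passed at an adjusted p under 0.05, a share of 0.10% (9 higher, 0.0822%, and 2 lower, 0.0183%). Of the 10 receptor and channel genes, 9 had enough counts to be tested, and 0 of the 9 passed by edgeR. DESeq2, which called 79 of the 10954, also called 0 of the 9, although it gave an adjusted p for only 6 of them. At an unadjusted p under 0.05, edgeR counted 2 of the 9, both higher in Ptch1cKO, where the shares over all genes were 9.34%, 4.80% for higher and 4.54% for lower. These 2 were the neurotensin receptor gene Ntsr2 and the α1B-adrenergic receptor gene Adra1b. The median log2 fold change of the 9 genes was 0.13, beside -0.0019 for all genes tested.

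**Figure D1:**
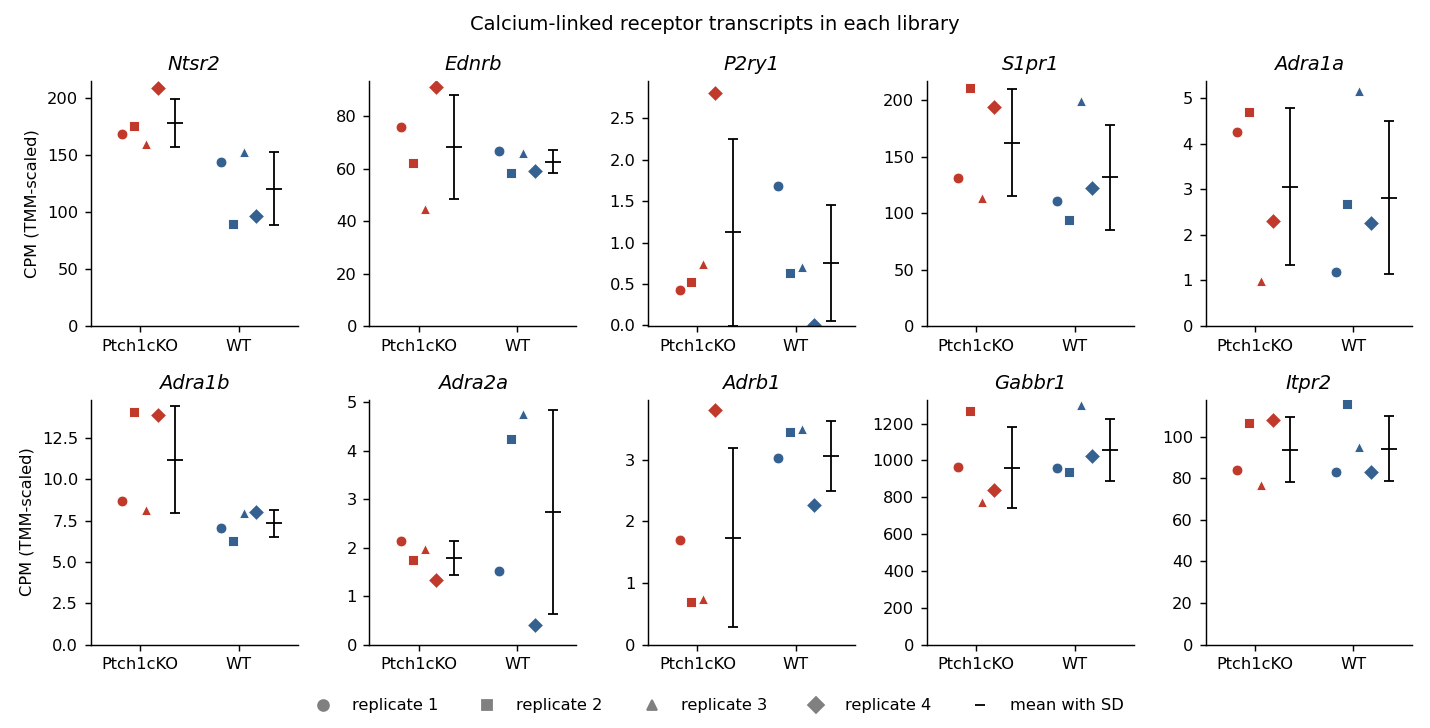
Each panel plots CPM (TMM-scaled, linear axis) for 1 gene in the 4 Ptch1cKO libraries on the left and the 4 WT libraries on the right, with marker shapes for the replicates and a bar for the mean with SD. Ntsr2 and Adra1b have all Ptch1cKO libraries above all WT libraries, while the other 8 genes overlap. Of all genes tested, 2.52% are separated in that direction and 5.02% in either direction.

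The promoters of both genes are shown with that of Itpr2, the channel gene, to give their base composition and short motifs. Each sequence runs 5′ to 3′ from 250 bases before to 50 bases after a RefSeq transcript start on GRCm38.p6, and capitals mark GC boxes (GGGCGG on either strand).
Ntsr2, chr12:16653220-16653519, plus strand: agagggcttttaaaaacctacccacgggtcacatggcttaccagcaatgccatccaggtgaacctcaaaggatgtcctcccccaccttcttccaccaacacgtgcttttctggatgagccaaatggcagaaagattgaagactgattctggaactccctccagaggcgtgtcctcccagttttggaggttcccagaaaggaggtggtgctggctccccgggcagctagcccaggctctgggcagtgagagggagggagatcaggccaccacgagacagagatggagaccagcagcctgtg
Adra1b, chr11:43836440-43836739, minus strand: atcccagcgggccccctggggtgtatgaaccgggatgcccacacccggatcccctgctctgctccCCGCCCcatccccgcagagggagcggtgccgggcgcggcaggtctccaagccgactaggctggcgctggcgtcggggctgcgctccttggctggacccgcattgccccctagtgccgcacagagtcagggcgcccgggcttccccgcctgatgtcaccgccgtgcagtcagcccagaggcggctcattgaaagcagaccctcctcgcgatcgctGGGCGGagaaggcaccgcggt
Itpr2, chr6:146502174-146502473, minus strand: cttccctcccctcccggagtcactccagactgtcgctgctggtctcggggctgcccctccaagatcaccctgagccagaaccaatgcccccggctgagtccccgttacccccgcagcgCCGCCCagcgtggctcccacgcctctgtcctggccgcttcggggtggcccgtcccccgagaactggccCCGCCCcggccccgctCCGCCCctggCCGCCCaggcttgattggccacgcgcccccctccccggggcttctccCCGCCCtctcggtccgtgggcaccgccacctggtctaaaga

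The Ntsr2 window holds 56.3% G and C and no GC box, whereas this Adra1b window holds 71.3% with 2 GC boxes and the Itpr2 window 73.3% with 5. A second Adra1b start, chr11:43901188-43901487, holds 42.3% G and C and no GC box. The median over all windows of this length is 52.67% G and C. RefSeq windows were matched for 8 of the 10 genes (not Adra1a and S1pr1), 9 windows in all, of which 6 hold a GC box, beside 35.7% of all 32851 windows of this length. The sequence TATAAA is in 1 of the 9, that of Adra2a, and in 13.6% of all windows. The Gli consensus GACCACCCA, to which the Hedgehog pathway's transcription factors bind, is in 0 of the 9 windows and in 0.253% of all windows, and the cyclic AMP response element TGACGTCA is in 0 of the 9 and in 1.79%. Both strands were searched, no motif overlapped another in these windows, and a motif match or its lack says nothing of binding.

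In the authors' TPM, which scale for transcript length as well as depth, mean levels over the 8 libraries spanned a 946-fold range. Gabbr1, a GABA-B receptor subunit, was highest at 599 TPM (library range 411 to 797). Ntsr2 followed at 263 TPM (166 to 363) and S1pr1, a receptor for the lipid sphingosine 1-phosphate, at 130 TPM (86.6 to 183). The ranges of Ntsr2 and S1pr1 overlapped, but Ntsr2 was above S1pr1 in all 8 libraries. The endothelin receptor gene Ednrb averaged 40.0 TPM (24.4 to 54.5) and Itpr2 21.0 TPM (15.3 to 26.9), again with overlapping ranges and Ednrb above Itpr2 in all 8 libraries.

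Adrenergic receptors stood lower. Adra1b averaged 6.89 TPM (4.90 to 10.3), below every library of Itpr2 and above every library of the β1-adrenergic gene Adrb1, at 2.63 TPM (0.715 to 4.03). The α1A gene Adra1a averaged 1.61 TPM (0.481 to 2.91) and the α2A gene Adra2a 1.59 TPM (0.310 to 3.44), and each was above the other in 4 of 8 libraries. P2ry1, a receptor for ADP, was lowest at 0.633 TPM (0 to 1.88). The order from Adrb1 down was therefore not separated by the spread over libraries. The libraries were made with exome capture probes, so a level reflects how well a gene is captured and not only its abundance.

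**Figure D2:**
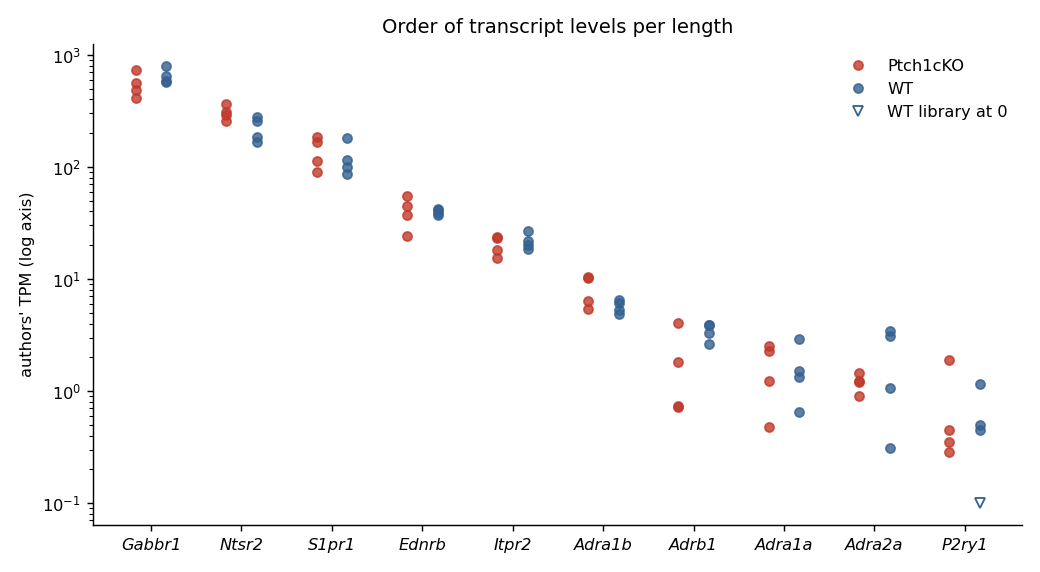
Each point is the authors' TPM (log axis) of a gene in 1 library, with Ptch1cKO left of WT for each gene, ordered by the mean over 8 libraries from Gabbr1 at 599 TPM to P2ry1 at 0.633 TPM. A WT library in which P2ry1 was at 0 is drawn as an open triangle at the foot of the axis.

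Ntsr2, a neurotensin receptor that is strongly enriched in brain astrocytes, had 169, 175, 160 and 209 CPM in Ptch1cKO replicates 1 to 4, against 144, 89.7, 152 and 96.3 CPM in WT replicates 1 to 4. Every Ptch1cKO library was above every WT library, although WT replicates 1 and 3 came close to the lowest mutant. Such separation was found in 5.02% of all genes tested, and in 2.52% with Ptch1cKO above. Means stood at 178 ± 21.5 CPM in Ptch1cKO and at 121 ± 32.2 CPM in WT (SD, n = 4 each). The log2 fold change was 0.56 (SE 0.18, 95% interval 0.19 to 0.94), a 1.48-fold difference that did not pass over all genes (edgeR, unadjusted p = 0.00589 and adjusted p = 0.337). In TPM the means stood at 304 ± 45.1 in Ptch1cKO and at 222 ± 55.3 in WT (SD, n = 4 each), and the groups overlapped.

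The gene lies on chromosome 12 of GRCm38 (mm10) at 16653382 to 16660227, plus strand. All 10 genes are protein-coding in GENCODE M21, and all but P2ry1 share no exon sequence with another gene. Without the filter on low counts Ntsr2 passed (edgeR, adjusted p = 0.0353), in a fit that called 199 of 20578 genes, and over all alternatives the adjusted p ranged from 0.0353 to 0.683. Its other receptor type, Ntsr1, had 1, 0, 0 and 4 counts in Ptch1cKO libraries, against 2, 4, 16 and 2 in WT libraries, and its peptide Nts had 4 and 10 counts pooled over the 4 Ptch1cKO and the 4 WT libraries. Both were below the count filter and were not tested.

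Ednrb encodes the endothelin B receptor, which astrocytes use in responses to injury. It had 75.7, 62.2, 44.5 and 91.1 CPM in Ptch1cKO replicates 1 to 4, against 66.8, 58.5, 66.1 and 59.1 CPM in WT replicates 1 to 4. The mutant libraries lay on both sides of the narrow WT range, with replicate 3 lowest and replicate 4 highest of all 8. Means stood at 68.4 ± 19.8 CPM in Ptch1cKO and at 62.6 ± 4.45 CPM in WT (SD, n = 4 each), and the log2 fold change was 0.13 (SE 0.19, 95% interval -0.28 to 0.54; adjusted p by edgeR = 0.887). Its sign turned in 3 alternatives, among them the fit without Ptch1cKO replicate 4 (-0.037).

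Ednrb spans chromosome 14 at 103814625 to 103844402, minus strand. Ednra, the endothelin A receptor typical of vascular muscle and pericytes, averaged 3.50 ± 1.49 CPM in Ptch1cKO and 2.31 ± 0.565 CPM in WT (SD, n = 4 each), for a log2 fold change of 0.58 (SE 0.43; adjusted p by edgeR = 0.729). The endothelin genes Edn1 and Edn3 had 3 and 1 counts pooled over the Ptch1cKO libraries and 6 and 14 over the WT libraries, and Edn2 had none in any of the 8. All 14 WT counts of Edn3 came from 1 library.

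S1pr1, which in the brain marks astrocytes and is also the main sphingosine 1-phosphate receptor of endothelium, had 131, 211, 114 and 194 CPM in Ptch1cKO replicates 1 to 4, against 111, 94.0, 199 and 122 CPM in WT replicates 1 to 4. Mutant replicates 2 and 4 and WT replicate 3 formed the upper end, and the groups overlapped. Means stood at 162 ± 47.2 CPM in Ptch1cKO and at 132 ± 46.7 CPM in WT (SD, n = 4 each). The log2 fold change was 0.30 (SE 0.24, 95% interval -0.21 to 0.82; adjusted p by edgeR = 0.762), and with single libraries left out it ran from 0.16 without Ptch1cKO replicate 2 and 0.17 without WT replicate 2 to 0.58 without WT replicate 3, where it still did not pass (adjusted p = 0.407). The gene lies on chromosome 3 at 115710433 to 115715072, minus strand. Of the endothelial markers, Ptprb was highest, at 8.06 CPM in Ptch1cKO and 6.88 CPM in WT on average, and the part of endothelial RNA in the S1pr1 value was not tested.

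P2ry1 encodes P2Y1, a Gq-coupled receptor for ADP through which ATP released by neighbouring cells can raise calcium in astrocytes. It had 3, 3, 3 and 17 counts in Ptch1cKO replicates 1 to 4, against 10, 4, 5 and 0 in WT replicates 1 to 4, and was the 1 gene of the 10 below the count filter. Most of the mutant reads came from replicate 4. Pooled over libraries the ratio of Ptch1cKO to WT was 1.42 (95% exact interval 0.757 to 2.72, counting error only). The 0 counts in WT replicate 4 allow a level of up to 0.605 CPM, as a limit of 3 counts over its total counts, without the TMM factor. The CPM means, 1.12 ± 1.13 in Ptch1cKO and 0.752 ± 0.695 in WT (SD, n = 4 each), did not differ beyond the spread (exact two-sided permutation test over 70 assignments, p = 0.657, where the smallest possible is 0.0286). Without Ptch1cKO replicate 4, the difference of the means changed sign to -0.191 CPM.

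An exon of P2ry1 (chromosome 3, 61002795 to 61008982, plus strand) overlaps the opposite-strand gene Gm37035, and the sources used here do not give the strand setting of the counting. P2ry12, the related receptor of microglia, had 54.6 ± 22.0 CPM in Ptch1cKO and 47.6 ± 11.1 CPM in WT (SD, n = 4 each; log2 fold change 0.19, SE 0.26; adjusted p by edgeR = 0.875), well above P2ry1 in both. The 9 microglial markers summed to 431 to 1115 CPM in Ptch1cKO and 384 to 752 CPM in WT, and their part in any purine receptor value was not tested.

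Noradrenaline acts on the next 4 genes. Adra1b, whose Gq-coupled receptor raises calcium, had 8.66, 14.1, 8.12 and 13.9 CPM in Ptch1cKO replicates 1 to 4, against 7.07, 6.29, 7.97 and 8.03 CPM in WT replicates 1 to 4. As in 2.52% of all genes tested, all mutant libraries were above all WT libraries. Replicate 3 was only just above, while replicates 2 and 4 were clearly higher. Those CPM stand for 61, 81, 33 and 84 counts in Ptch1cKO and 42, 40, 57 and 39 counts in WT. The log2 fold change was 0.61 (SE 0.28, 95% interval 0.02 to 1.20), a 1.53-fold difference that did not pass over all genes (edgeR, unadjusted p = 0.0431 and adjusted p = 0.515). With single libraries left out, the unadjusted p by edgeR ran from 0.0230 to 0.135. In TPM, at 8.07 ± 2.55 in Ptch1cKO and 5.71 ± 0.717 in WT (SD, n = 4 each), the groups overlapped. Annotation places it on chromosome 11 at 43774606 to 43901210, minus strand.

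Adra1a, the other α1 gene of the set and likewise Gq-coupled, had 30, 27, 4 and 14 counts in Ptch1cKO replicates 1 to 4, against 7, 17, 37 and 11 counts in WT replicates 1 to 4. WT replicate 3 was the highest library and Ptch1cKO replicate 3 the lowest, and the groups overlapped. Means stood at 3.06 ± 1.73 CPM in Ptch1cKO and at 2.82 ± 1.69 CPM in WT (SD, n = 4 each; log2 fold change 0.13, SE 0.52, 95% interval -0.97 to 1.23; adjusted p by edgeR = 0.97). The sign turned in 4 alternatives, among them the fits without Ptch1cKO replicate 1 (-0.07), Ptch1cKO replicate 2 (-0.13) or WT replicate 1 (-0.13). The gene lies on chromosome 14 at 66635251 to 66771168, plus strand.

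Adra2a, a Gi-coupled receptor that lowers cyclic AMP, had 2.13, 1.74, 1.97 and 1.32 CPM in Ptch1cKO replicates 1 to 4, against 1.51, 4.24, 4.75 and 0.412 CPM in WT replicates 1 to 4. The mutant libraries were close together. WT replicates 2 and 3, the libraries with Xist counts, were the highest of the 8 and WT replicate 4 the lowest, on 2 to 34 counts. The log2 fold change was -0.64 (SE 0.57, 95% interval -1.85 to 0.58; adjusted p by edgeR = 0.789). Among the 6 libraries that had fewer than 10 counts of Xist, the sign turned, at 0.84 (SE 0.72; adjusted p = 0.817), so the lower mutant mean rests on those WT libraries. Its locus is chromosome 19 at 54044151 to 54048982, plus strand.

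Adrb1, the β1-adrenergic receptor, which couples to Gs and raises cyclic AMP, had 1.70, 0.695, 0.738 and 3.80 CPM in Ptch1cKO replicates 1 to 4, against 3.03, 3.46, 3.49 and 2.26 CPM in WT replicates 1 to 4. Of the 4 mutant libraries, 3 were below every WT library, and replicate 4 was the highest of all 8. The log2 fold change was -0.79 (SE 0.51, 95% interval -1.88 to 0.31; adjusted p by edgeR = 0.676) on 3 to 25 counts a library. Without Ptch1cKO replicate 2 it was -0.52, and without Ptch1cKO replicate 4 it was -1.49 (SE 0.54) and still did not pass (adjusted p = 0.639). The gene lies on chromosome 19 at 56722199 to 56733113, plus strand.

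Gabbr1 encodes the GABA-B receptor subunit that binds GABA, and it works as a pair with Gabbr2, which couples the receptor to Gi. Gabbr1 had 964, 1266, 775 and 841 CPM in Ptch1cKO replicates 1 to 4, against 957, 936, 1303 and 1025 CPM in WT replicates 1 to 4. The groups overlapped, with the lowest values in mutant replicates 3 and 4. Means stood at 962 ± 218 CPM in Ptch1cKO and at 1056 ± 169 CPM in WT (SD, n = 4 each; log2 fold change -0.13, SE 0.16, 95% interval -0.47 to 0.20; adjusted p by edgeR = 0.849). Gabbr1 lies on chromosome 17 at 37045966 to 37075067, plus strand. Gabbr2 averaged 373 ± 81.2 CPM in Ptch1cKO and 301 ± 93.6 CPM in WT (SD, n = 4 each; log2 fold change 0.31, SE 0.20; adjusted p by edgeR = 0.672). Neurons also use both genes, and the neuronal marker sums given above overlapped between genotypes. Most of that sum was Snap25, at 3333 CPM in Ptch1cKO and 3682 CPM in WT on average. Of the 10 neuronal markers, 4 had a positive and 6 a negative fold change. The part of neuronal RNA in the GABA-B values was not tested.

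Within a library, the TPM ratio of Gabbr1 to Gabbr2 was 2.49, 2.36, 2.43 and 1.93 in Ptch1cKO replicates 1 to 4, against 3.32, 3.32, 2.63 and 3.58 in WT replicates 1 to 4. All mutant ratios were below all WT ratios, with means of 2.31 ± 0.254 in Ptch1cKO and 3.21 ± 0.409 in WT (SD, n = 4 each). The exact two-sided permutation test on the log2 ratio gave p = 0.0286, the smallest it can give, and an adjusted p of 0.114 over the 4 ratios examined (Benjamini-Hochberg), which does not pass. These 4 ratios were chosen after the values of the genes were seen. The size of a ratio also reflects how well each gene is captured, and a difference between groups does not show which member differed. Itpr2 to Itpr1 was 0.156 ± 0.0255 in Ptch1cKO and 0.129 ± 0.0335 in WT, Adra1b to Adra1a 6.62 ± 3.90 in Ptch1cKO and 4.61 ± 2.67 in WT, and Ednrb to Ednra 20.2 ± 13.7 in Ptch1cKO and 23.8 ± 6.98 in WT (SD, n = 4 each). Their exact permutation p-values were 0.229, 0.429 and 0.457, with an adjusted p of 0.457 for each.

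**Figure D3:**
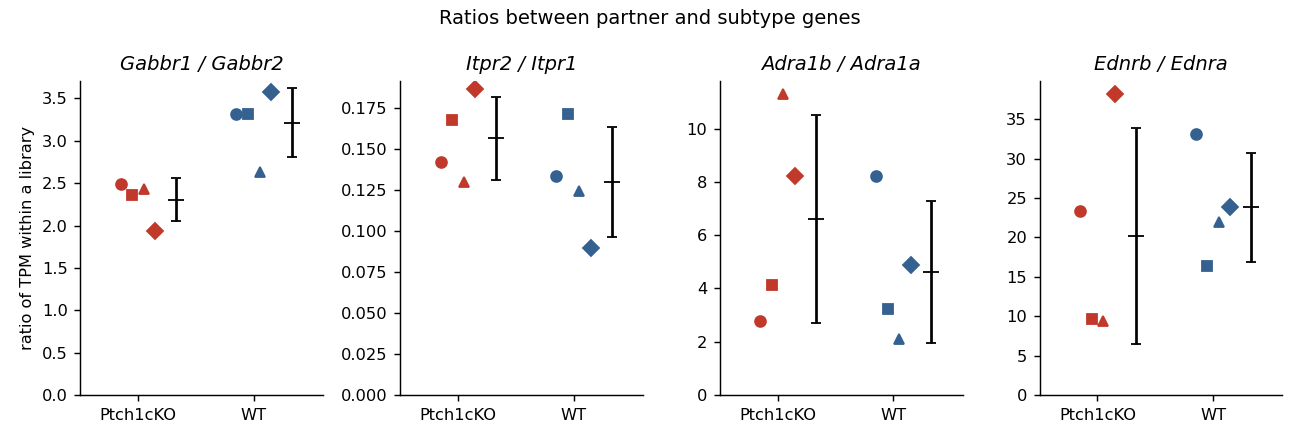
Each panel plots a ratio of TPM between a pair of genes within each library (linear axis from 0), Ptch1cKO on the left and WT on the right, with the mean and SD beside the points. The Gabbr1 to Gabbr2 ratio averages 2.31 in Ptch1cKO and 3.21 in WT without overlap, and the other 3 ratios overlap.

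Itpr2, the IP3 receptor through which most IP3-driven calcium release of astrocyte cell bodies passes in mice, had 84.1, 107, 76.7 and 108 CPM in Ptch1cKO replicates 1 to 4, against 83.1, 116, 95.2 and 83.2 CPM in WT replicates 1 to 4. The groups interleaved. Means stood at 93.9 ± 15.8 CPM in Ptch1cKO and at 94.4 ± 15.5 CPM in WT (SD, n = 4 each). The log2 fold change was -0.0073 (SE 0.17; adjusted p by edgeR = 0.995), and its 95% interval, -0.36 to 0.34, is the narrowest but for Gabbr1 of the 9. The sign was positive in 4 alternatives, namely without Ptch1cKO replicate 1 (0.043), Ptch1cKO replicate 3 (0.075) or WT replicate 2 (0.11), and in the 6 libraries nearly free of Xist (0.18). On GRCm38 it spans chromosome 6 at 146108299 to 146502223, minus strand. Its relatives were Itpr1, the main type of neurons, at 501 ± 20.8 CPM in Ptch1cKO and 625 ± 111 CPM in WT (SD, n = 4 each), for a log2 fold change of -0.32 (SE 0.13; adjusted p by edgeR = 0.468), and Itpr3, at 2.52 ± 1.36 CPM in Ptch1cKO and 3.37 ± 2.14 CPM in WT (SD, n = 4 each), with -0.43 (SE 0.55; adjusted p = 0.861).

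**Figure D4:**
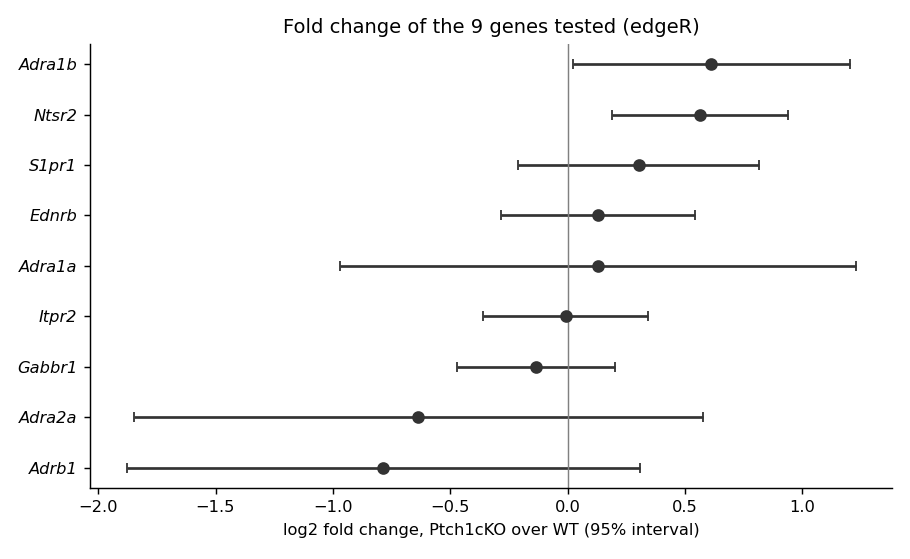
Points give the log2 fold change of Ptch1cKO over WT from edgeR for the 9 genes tested, with 95% intervals, and the vertical line marks 0. The intervals of Adra1b (0.02 to 1.20) and Ntsr2 (0.19 to 0.94) lie above 0 without adjustment for the number of genes, and the other 7 hold 0.

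The spread between libraries of a group differed among the genes. The within-group SD of log2 CPM was 0.24 for Itpr2, 0.27 for Gabbr1, 0.30 for Ntsr2, 0.31 for Adra1b, 0.32 for Ednrb and 0.45 for S1pr1, beside a median of 0.35 over all genes tested. The genes with few counts varied more, with 0.69 for Adrb1, 0.83 for Adra1a and 0.93 for Adra2a. For Ednrb the SD was 0.44 in Ptch1cKO and 0.10 in WT, and for Adra2a it was 0.25 in Ptch1cKO and 1.29 in WT.

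Across the 8 libraries, some of the genes had their high and low values in the same libraries. Of 36 pairs, Adra1b with S1pr1 had the highest Pearson r of log2 CPM (r = 0.81, Spearman rho = 0.74), Adra1a with Gabbr1 was next (r = 0.78, rho = 0.74), and Ntsr2 with Adra1b followed (r = 0.73, rho = 0.90). Ntsr2 with Gabbr1 was near 0 (r = -0.04, rho = -0.07). These pairs share libraries, depth and genotype, so the values are descriptions. Similar genes were sought among those tested whose symbols start with a letter. There, S1pr1 was most like the fibroblast growth factor receptor Fgfr3, an astrocyte marker (r = 0.98, rho = 0.90), and the glypican Gpc5 (r = 0.98, rho = 0.93). Ntsr2 was most like Pcx, the pyruvate carboxylase of astrocytes (r = 0.97, rho = 0.86), and the collagen gene Col1a2 (r = 0.96, rho = 0.90). For Adra1b it was Jam2 and Rfwd3 (r = 0.97 each), for Gabbr1 Ube3a and Prkdc (r = 0.97 each), for Ednrb Smek2 (r = 0.96) and Arxes2 (r = 0.93), and for Itpr2 Ppp2r2a (r = 0.95) and Rit1 (r = 0.94). For the low-count genes they were Cd97 (r = 0.97) and Nup37 (r = 0.96) for Adra1a, Selm (r = 0.95) for Adra2a, and Fam43a (r = 0.96) and Naa50 (r = 0.94) for Adrb1. Each was picked over 8 points as one of the closest among those many genes.

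Genes around the receptors were read from 7 lists by role. Of 174 listed genes, 170 were in the table and 137 were tested. By edgeR 0 of 137 passed over all genes, where it called 11 of 10954. DESeq2 called 2 of the 137, Plce1 and Atp2b4, where it called 79 of the 10954. At an unadjusted p under 0.05, 12 were higher and 12 lower, 17.5% of the 137 beside 9.34% of all genes. The CPM of the groups did not overlap for 9 of the 137, beside 5.02% of all genes. The median log2 fold change was -0.0132 for the 137 and -0.0019 for all genes tested.

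Among Gq proteins, phospholipase C enzymes and their regulators, 0 of 18 passed and the median was -0.05. Plce1, a phospholipase C that Ras and Rap activate, averaged 59.4 ± 8.34 CPM in Ptch1cKO and 31.9 ± 4.19 CPM in WT (SD, n = 4 each), with no overlap between groups and a log2 fold change of 0.90 (SE 0.17; adjusted p by edgeR = 0.0782). DESeq2 gave it an adjusted p of 0.000343. Rgs16, which speeds the shutting off of Gq and Gi, averaged 1.36 ± 0.344 CPM in Ptch1cKO and 3.86 ± 2.48 CPM in WT (SD, n = 4 each), with -1.46 (SE 0.52; edgeR, adjusted p = 0.404).

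Of IP3 receptors, ryanodine receptors, store refilling and calcium pumps, 0 of 26 passed, 10 fold changes were positive and 16 negative, and the median was -0.09. Atp2b4, a plasma membrane pump that expels calcium, averaged 41.3 ± 12.1 CPM in Ptch1cKO and 18.1 ± 3.35 CPM in WT (SD, n = 4 each). Its groups did not overlap and its log2 fold change was 1.19 (SE 0.23; adjusted p by edgeR = 0.0782; DESeq2 adjusted p = 0.000505). Its relative Atp2b2 averaged 994 ± 148 CPM in Ptch1cKO and 1350 ± 109 CPM in WT (SD, n = 4 each), for a log2 fold change of -0.44 (SE 0.13; adjusted p = 0.3). Neurons carry much Atp2b2, and the part of neuronal RNA in this value was not tested.

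Of calcium sensors and effectors, 0 of 20 passed and the median was -0.03. The calmodulin kinase gene Camk2g averaged 625 ± 50.7 CPM in Ptch1cKO and 447 ± 83.0 CPM in WT, and Camk2d 80.5 ± 7.25 CPM in Ptch1cKO and 105 ± 24.2 CPM in WT (SD, n = 4 each). Their log2 fold changes were 0.48 (SE 0.14) and -0.38 (SE 0.17), and edgeR gave adjusted p-values of 0.321 for Camk2g and 0.514 for Camk2d.

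Of Gi and Gs proteins and cyclic AMP enzymes, 0 of 24 passed, and 4 fold changes were positive and 20 negative, with a median of -0.19. Over all genes 49.6% were positive. Gnai3, a Gi α subunit, averaged 90.0 ± 12.2 CPM in Ptch1cKO and 118 ± 5.28 CPM in WT (SD, n = 4 each), with all mutant libraries below all WT libraries and a log2 fold change of -0.39 (SE 0.14; adjusted p by edgeR = 0.412). Gnao1, the α subunit Go, had -0.29 (SE 0.12; adjusted p = 0.478).

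Of receptor kinases, arrestins and scaffolds, 0 of 11 passed, and the median was 0.05. Arrb2, an arrestin that uncouples receptors, had a log2 fold change of 0.49 (SE 0.36; adjusted p by edgeR = 0.726) and the receptor kinase gene Adrbk2 0.30 (SE 0.23; adjusted p = 0.742). Of other receptors for the same and related transmitters, 0 of 20 passed, and 14 fold changes were positive, with a median of 0.25. Gprc5b, an orphan receptor, averaged 102 ± 25.5 CPM in Ptch1cKO and 64.4 ± 16.6 CPM in WT, and P2rx7, an ATP-gated channel, 6.44 ± 1.84 CPM in Ptch1cKO and 2.93 ± 1.19 CPM in WT (SD, n = 4 each). Their edgeR adjusted p-values were 0.337 and 0.373. Microglia carry P2rx7. Of their 9 markers, 9 had a positive fold change, with a median of 0.59 on the log2 scale, and their part in the P2rx7 value was not tested.

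Of ligand genes and genes that make or clear ligands, 0 of 18 passed, and 14 fold changes were positive, with a median of 0.23. Slc6a11, the GABA transporter GAT3 of astrocytes, averaged 244 ± 104 CPM in Ptch1cKO and 129 ± 49.7 CPM in WT (SD, n = 4 each), a log2 fold change of 0.92 (SE 0.34; adjusted p by edgeR = 0.442). Abat, which breaks GABA down, averaged 959 ± 202 CPM in Ptch1cKO and 709 ± 111 CPM in WT (SD, n = 4 each), with 0.44 (SE 0.16; adjusted p = 0.404). Slc1a3, the glutamate transporter whose promoter drives the Cre, averaged 1101 ± 318 CPM in Ptch1cKO and 1037 ± 248 CPM in WT (SD, n = 4 each), with 0.09 (SE 0.21; adjusted p = 0.949).

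**Figure D5:**
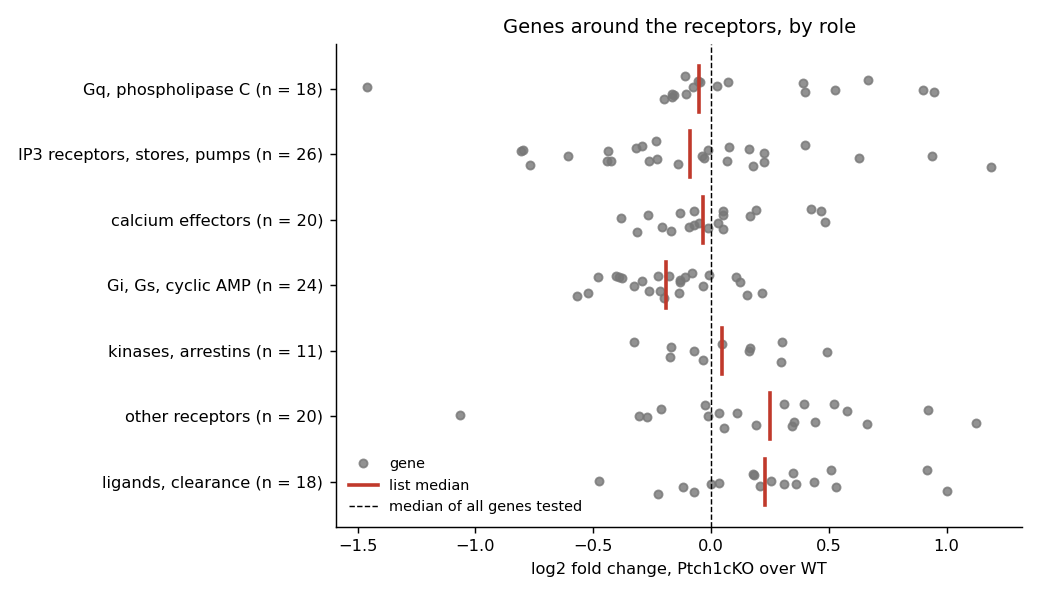
Each point is the log2 fold change (Ptch1cKO over WT, edgeR) of a tested gene in 1 of 7 lists by role, with the list median as a red bar and the median of all genes tested (-0.0019) as a dashed line. List medians run from -0.19 for Gi, Gs and cyclic AMP genes to 0.25 for other receptors, and none of the points passed over all genes.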

How the data were processed

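Values are raw read counts per symbol, deposited as whole numbers without scaling, and the authors' own TPM from a separate deposited file. Per the labels' protocols, amplified cDNA was enriched with exome capture probes before sequencing. Per the submitters' processing notes, bcl2fastq 2.18, STAR 2.5 and the build mm10 were used. The sources used here name no counting program, annotation or strand setting.

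Tests on counts ran under edgeR 4.0.16 (R 4.3.3). filterByExpr (minimum count 10) kept 10954 of 20578 genes with a count. TMM factors and the quasi-likelihood F test (robust, group as the only term) compared 4 Ptch1cKO with 4 WT libraries, with Benjamini-Hochberg adjustment over all genes and a threshold of 0.05. The SE is the log2 fold change over the root of F, and the 95% interval uses the degrees of freedom of the fit. The fit was tested on simulated data. Positions are those of GENCODE M21 (GRCm38, which mm10 is), and promoters are from RefSeq.

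The genes, lists and tests were chosen with earlier results of these data known. Named were the 10 genes, Ptch1, subtype partners, Slc1a3, the 2 smallest p-values of each list and the 2 most similar genes of each tested member. A few items that this rule takes are not reported here. Nts, Edn1, Edn2, Edn3, Xist, Slc1a2, Snap25, Ptprb and Cldn5 are outside it and were picked with their values already known. Alternatives changed normalization, filter, tool (DESeq2 1.42.0, limma 3.58.1 by voom or on log2 TPM with a pseudocount of 1 or 0.1), replicate block and samples. No 2 libraries agreed within sampling noise.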

Additional observations from a re-analysis of the deposited data

Results flagged for a closer look

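P2ry1 in Ptch1cKO replicate 4 stood far from the other libraries of its group, at 2.81 CPM with the next at 0.738 CPM. The gap was 0.869 of the group's range, above the 95% critical value of Dixon's test for 4 samples. It was the 1 flag among 20 groups examined, and chance flags about 1 in 20. The same library had the highest CPM of all 8 for Ntsr2, Ednrb and Adrb1 as well.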

How the results depend on the processing

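The count of genes that passed over all genes was 11. It was 199 without the count filter, 79 with DESeq2, 2 with limma on log2(TPM + 1) or on log2(TPM + 0.1), 5 with the replicate block, 3 in the 6 libraries with under 10 Xist counts, and 1 to 19 with a library left out. The TPM fits moved the median of all genes to -0.10 and -0.11. The count of genes passing among the 137 around the receptors, 0, was 5 without the filter and 2 with DESeq2. Leaving out a library gave 0 each time.

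Ntsr2, Adra1b, S1pr1, Adrb1 and Gabbr1 kept their sign in every alternative run, with a library left out at 0.45 to 0.70, 0.49 to 0.73, 0.16 to 0.58, -1.49 to -0.52 and -0.29 to -0.02. Ntsr2 passed without the filter (log2 fold change 0.57). The sign turned for Adra1a with TPM + 0.1 (-0.029) and without single libraries (-0.13 to 0.61), for Adra2a in the 6 libraries (0.84), for Ednrb in both TPM fits (-0.034 and -0.036) and without single libraries (-0.037 to 0.29), and for Itpr2 in the 6 libraries (0.18) and without single libraries (-0.083 to 0.11). For P2ry1 the CPM difference, 0.371, was -0.191 to 0.677 without single libraries. The Gabbr1 to Gabbr2 log2 ratio differed by -0.48, by -0.57 to -0.39 without single libraries (exact permutation p = 0.0571 without any 1 mutant and 0.0286 without any 1 WT library) and by -0.59 in the 6 libraries, where 4 against 2 cannot pass (exact permutation p = 0.0667, the smallest possible). That of Adra1b to Adra1a turned to -0.15 there. The alternatives for ratios were chosen after the data were seen.

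Same-numbered libraries did not deviate together (correlations -0.17 to 0.02, and 0 of 8 libraries were most like their own number), so the title numbers were not taken as pairs, and the replicate block called no receptor gene. Column names number the mutants 1, 2, 4 and 5, and that numbering was not checked for pairs. A fit with the column-name prefix as a batch was not run, since each prefix holds 1 genotype. Counts of 0 to 37 a library limit P2ry1, Adra1a, Adra2a and Adrb1.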
